A study of Mus musculus with 5 samples.

Results

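Among 16593 mouse genes measured on an Illumina bead array, 155 belong to 12 developmental transcription factor families, and 34 of these were detected in at least 1 of 5 cultures of E3 epiblast stem cells. The members are all genes whose symbol is a family name followed by a letter or number: Fox, Sox, Gata, Tbx, Irx, Pax, Lhx, Nkx, Dlx, Msx, Hox and the sine oculis family (Six3, Six5 and others). Sox2, Sox21, Irx3 and Foxd4 were left out of the set, and so were genes that only look alike in name, such as Foxred1, Gatad1 and Paxip1. The 155 genes are represented by 213 of 25697 probes, and 1 of them, Dlx1as, is an antisense transcript. The rule reads gene symbols and no measured value, but the set was proposed with earlier results of these data known.

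Epiblast stem cells are a primed pluripotent cell type related to the post-implantation epiblast, from which all tissues of the embryo arise. The E3 line was grown on inactivated CF1 mouse embryonic fibroblasts in KSR medium with 5 ng/ml FGF2. Once semiconfluent, the cultures were given new medium for 12 h. The labels name no FGF2 in the new medium, which held either no agent (untreated), 1 µM PD0325901 (PD), 3 µM CHIR99021 (CH), 1000 U/ml LIF, or all 3 agents together (PCL). PD0325901 inhibits the kinase MEK and so blocks ERK signalling, CHIR99021 inhibits GSK3 and so stabilises beta-catenin, and LIF is a cytokine that activates STAT3. Total RNA (400 ng) was amplified, labelled and read on 1 array per condition, from 1 cell line, so that no difference between conditions has a replicate and no p-value is given for any of them. All 4 differences use the same untreated array, so its error is shared by all of them.

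The families in question are named for their DNA-binding domains. Fox proteins carry a forkhead domain and Sox proteins an HMG box, Gata proteins bind through zinc fingers and Tbx proteins through a T-box. The Irx, Lhx, Nkx, Dlx, Msx, Hox and sine oculis proteins carry homeodomains, and Pax proteins a paired domain. Most members are silent in pluripotent cells and are switched on when cells enter a lineage, where they select regional and cell type programmes. Others, among them the FoxO, FoxK, FoxM and SoxC groups, act in most dividing cells. In cultured embryonic cells the Wnt, ERK and LIF pathways are among the signals that act on lineage entry.

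Values are bead intensities after background correction and quantile normalization, given on the log2 scale, and a gene is given by its brightest probe. The ± beside a difference is the standard error that the spread among beads of the same probe gives, which covers reading error within an array and no variation between cultures. A probe is called detected where its detection p is under 0.01, a threshold that 1% of the negative control beads pass by construction. Levels are compared between arrays for the same probe, never between probes. A culture on feeders is a mixture, and in such bulk samples fewer cells of a type and less RNA per cell cannot be told apart. Of 10 epiblast stem cell markers on the array, 10 were detected in all 5 cultures. Of 23 feeder fibroblast markers, 18 were detected on at least 1 array, while Col1a2, Col3a1, Col5a2, Postn and Pdgfrb were not. The mean log2 level of the feeder list was 6.58 untreated, 6.97 with PD, 6.51 with CH, 6.50 with LIF and 6.77 for PCL, and its part in the results below was not tested. Of 6 neuronal and neural precursor markers, Nes and Map2 were detected on all 5 arrays, and Tubb3, Dcx, Nefl and Gfap on none. Of 7 visceral or primitive endoderm markers, Amn, Dab2, Lama1, Apoa1 and Apoe were detected on at least 1 array, and Afp and Ttr on none. In that list Lama1 differed from untreated by 1.22 with CH and 1.18 with PCL, and Apoa1 by -0.13 with CH and -1.88 with PCL. A member that only 1 of 2 arrays detected usually has its direction set by that filter, so counts and medians that include such members describe the set and support no direction.

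Few of the developmental factors were detected, in any culture. Of the 213 member probes, 29 were detected untreated, 29 with PD, 26 with CH, 29 with LIF and 27 for PCL. These counts are 12.2 to 13.6% of the members, where 41.3% of all probes were detected untreated, 41.8% with PD, 41% with CH, 42.4% with LIF and 40.4% for PCL. Over the 5 arrays together, 41 member probes were detected on at least 1 array, where 46.2% of all probes were, and 20 on all 5, where 37.2% of all probes were. By gene, 34 of the 155 (21.9%) were detected on at least 1 array against 49% of all genes, and 16 on all 5 arrays against 40.6% of all genes. Another 11 were detected on 2 to 4 arrays, 7 on exactly 1 array, and 121 on none. The share of member probes detected was lower than that of all probes by more than 2 times on every array.

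**Figure D1:**
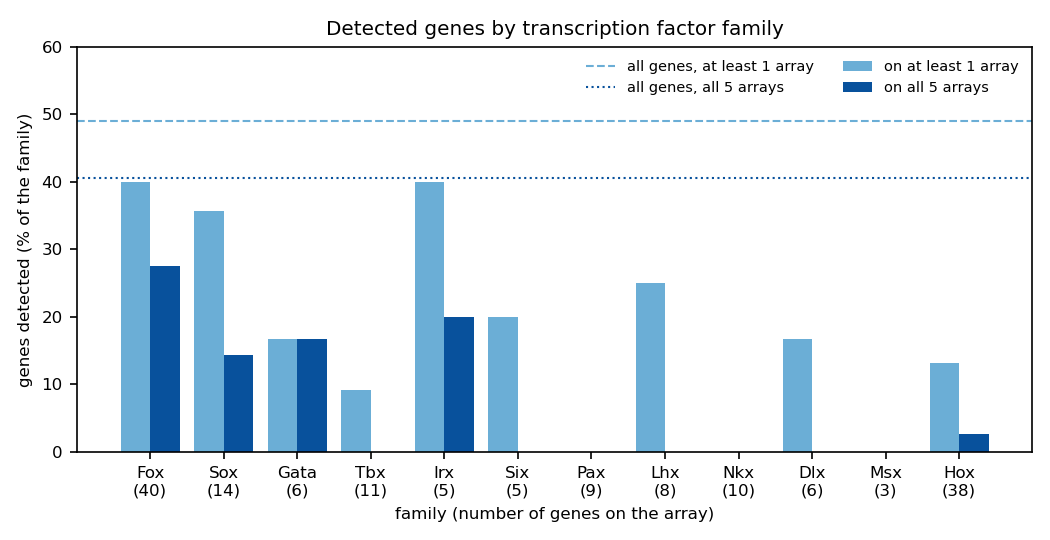
Share of the genes of each family, in percent, that were detected on at least 1 array (light bars) and on all 5 arrays (dark bars), with the number of genes on the array in brackets; the dashed and dotted lines mark the same shares over all genes, 49 and 40.6%. The Fox family holds 16 of the 34 detected genes, and Pax, Nkx and Msx have none.

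Fox genes made up the largest part of what was detected, with 16 of 40 detected on at least 1 array and 11 on all 5. Sox followed with 5 of 14, and Hox had 5 of 38. Irx had 2 of 5 and Lhx 2 of 8. A single gene each was detected of the Gata (6), Tbx (11), sine oculis (5) and Dlx (6) families, and none of 9 Pax, 10 Nkx and 3 Msx genes. The undetected genes include textbook regulators of the early nervous system: Sox1, Sox3, Pax6, Six3, Lhx2 and Foxd3. They also include Foxa1, Sox7 and Gata4 of the endoderm, and Tbx6 and Gata2 of mesoderm and blood. An undetected probe gives only an upper bound on its gene: the lowest level called detected lay between 5.02 and 5.17 on the 5 arrays.

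Most member probes read close to background. The undetected member probes had a median raw intensity of 81.7 untreated, 87.5 with PD, 87.5 with CH, 85.5 with LIF and 84.8 for PCL, against background means of 81.4 to 86.8. Of the 29 probes detected untreated, 17 had a detection p of 0 and 12 lay between 0 and 0.01. Just inside the threshold on that array the highest detection p was 0.00877, and just outside it was a Sox17 probe at 0.0113. Bead error was correspondingly larger for the members: the median standard error of a member's difference from untreated was 0.19 to 0.20 on the log2 scale, against 0.13 to 0.14 over all genes compared.

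**Figure D2:**
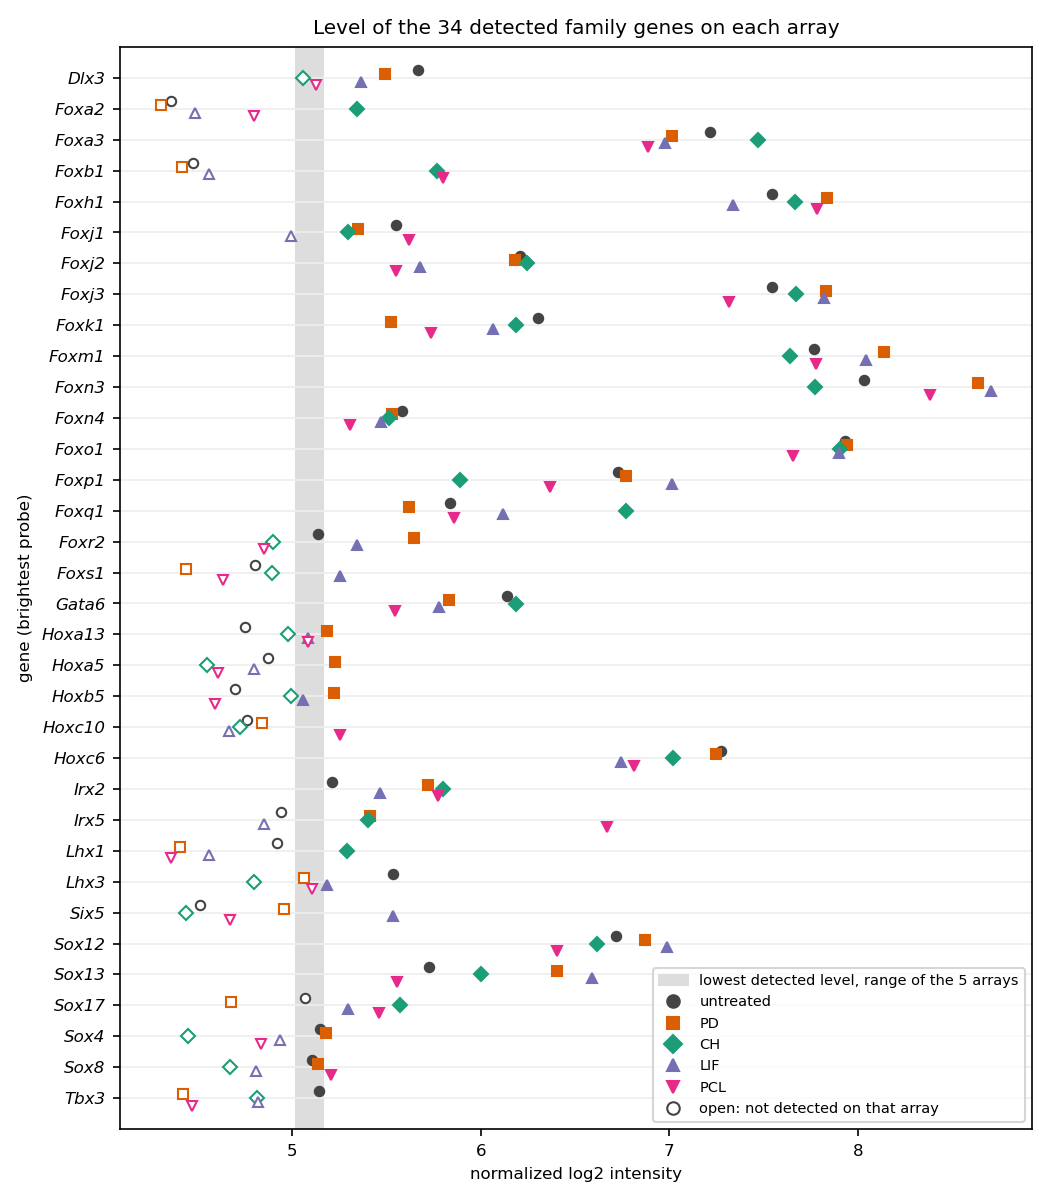
Normalized log2 intensity of the 34 detected family genes on each of the 5 arrays, with filled marks where the probe was detected and open marks where it was not; the grey band spans the lowest detected level of the 5 arrays, 5.02 to 5.17. Most genes detected on fewer than 5 arrays lie within about 1 log2 unit of the band.

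With PD, the members differed little from untreated, and none of the 27 compared genes differed 2-fold from untreated. Over all genes compared, 0.49% were at least 2-fold higher with PD and 0.451% at least 2-fold lower. At 1.5-fold, a lower limit chosen after seeing the data, 2 members were higher (Foxn3 and Sox13) against 5.75% of all genes, and 2 were lower (Foxk1 and Tbx3) against 4.63%. The median difference of the members was 0.03, with 0.00 over all genes. By direction alone, 16 of 27 members stood above untreated (50.2% of all genes) and 11 below (49.6%). With arrays scaled to a common median in place of quantile normalization, 19 of 27 stood above. That scaling also moved the median of all genes to 0.07. Beyond 2 bead standard errors lay 8 members upwards (22.8% of all genes) and 3 downwards (20.7%).

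With CH, the set split in both directions. Of 28 compared genes, 1 was at least 2-fold higher, Foxb1, against 0.572% of all genes, and none was at least 2-fold lower, against 0.39%. At 1.5-fold, 4 were higher (Foxa2, Foxb1, Foxq1 and Irx2; all genes 4.03%) and 4 lower (Dlx3, Foxp1, Lhx3 and Sox4; all genes 3.95%). The members' shares, 14.3% each way, depended on the processing and on genes that 1 of the 2 arrays did not detect. Among the 17 members detected on both arrays 2 were higher and 1 lower, and with the undetected side at its bound 3 and 1. With an offset of 50 they were 2 and 0, and without background correction 0 and 0. These last settings narrow the differences of all genes. The shares of all genes were not counted under them, so the counts do not show whether the members still exceeded all genes. The median was -0.05 against -0.01 for all genes, with 13 of 28 above untreated (48.5% of all genes) and 15 below (51.2%). After median scaling 16 stood above, and the median of all genes moved to 0.09. Beyond 2 bead standard errors lay 5 members upwards (18.1% of all genes) and 5 downwards (17.9%).

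With LIF, 1 of 28 compared genes was at least 2-fold higher, Six5, against 0.154% of all genes. None was at least 2-fold lower, where 2.81% of all genes were. At 1.5-fold, Foxn3, Six5 and Sox13 were higher (3 of 28; all genes 4.3%) and no member was lower (all genes 8.5%). The median of the members was 0.09 and that of all genes 0.05, and 14 of 28 members stood above untreated (55.2% of all genes) and 14 below (44.7%). Beyond 2 bead standard errors, 6 lay higher (25.8% of all genes) and 4 lower (19.8%). Median scaling moved the median of all genes to 0.19, so LIF differences are relative to that shift under it.

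With PCL, 2 of 27 compared genes were at least 2-fold higher, Foxb1 and Irx5, against 0.706% of all genes. None was at least 2-fold lower, against 0.68%. At 1.5-fold the same 2 genes were higher (all genes 3.78%) and 3 were lower: Foxj2, Gata6 and Tbx3 (all genes 4.73%). The median of the members was -0.27, with -0.00 over all genes, but it was 0.011 with no detection filter and 0.00 with undetected values at their bound. Both settings draw the median towards 0 by construction. The former takes in the 121 genes detected on no array, and the latter shrinks differences of genes that 1 array detected. By direction, 11 members stood above untreated (49.3% of all genes) and 16 below (50.4%). The median was -0.25 over the 18 members detected on both arrays. Beyond 2 bead standard errors, 9 members lay lower (18% of all genes) and 5 higher (17%).

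Among the 16 genes detected on all 5 arrays, the PCL array gave the lowest level for 8, where it did so for 17.4% of all genes detected on all 5. It gave the highest level for none of the 16, against 16.6% of all such genes. By their brightest probes, the 8 genes are Foxa3, Foxj2, Foxj3, Foxn4, Foxo1, Gata6, Sox12 and Sox13. Foxj3 depends on the probe: further probes detected on all 5 arrays were highest with PCL, at 7.07 and 5.91. The margin can be small: Foxa3 read 6.89 with PCL and 6.98 with LIF. The untreated array gave the lowest level for 1 of the 16, Irx2, against 20.7% of all such genes.

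**Figure D3:**
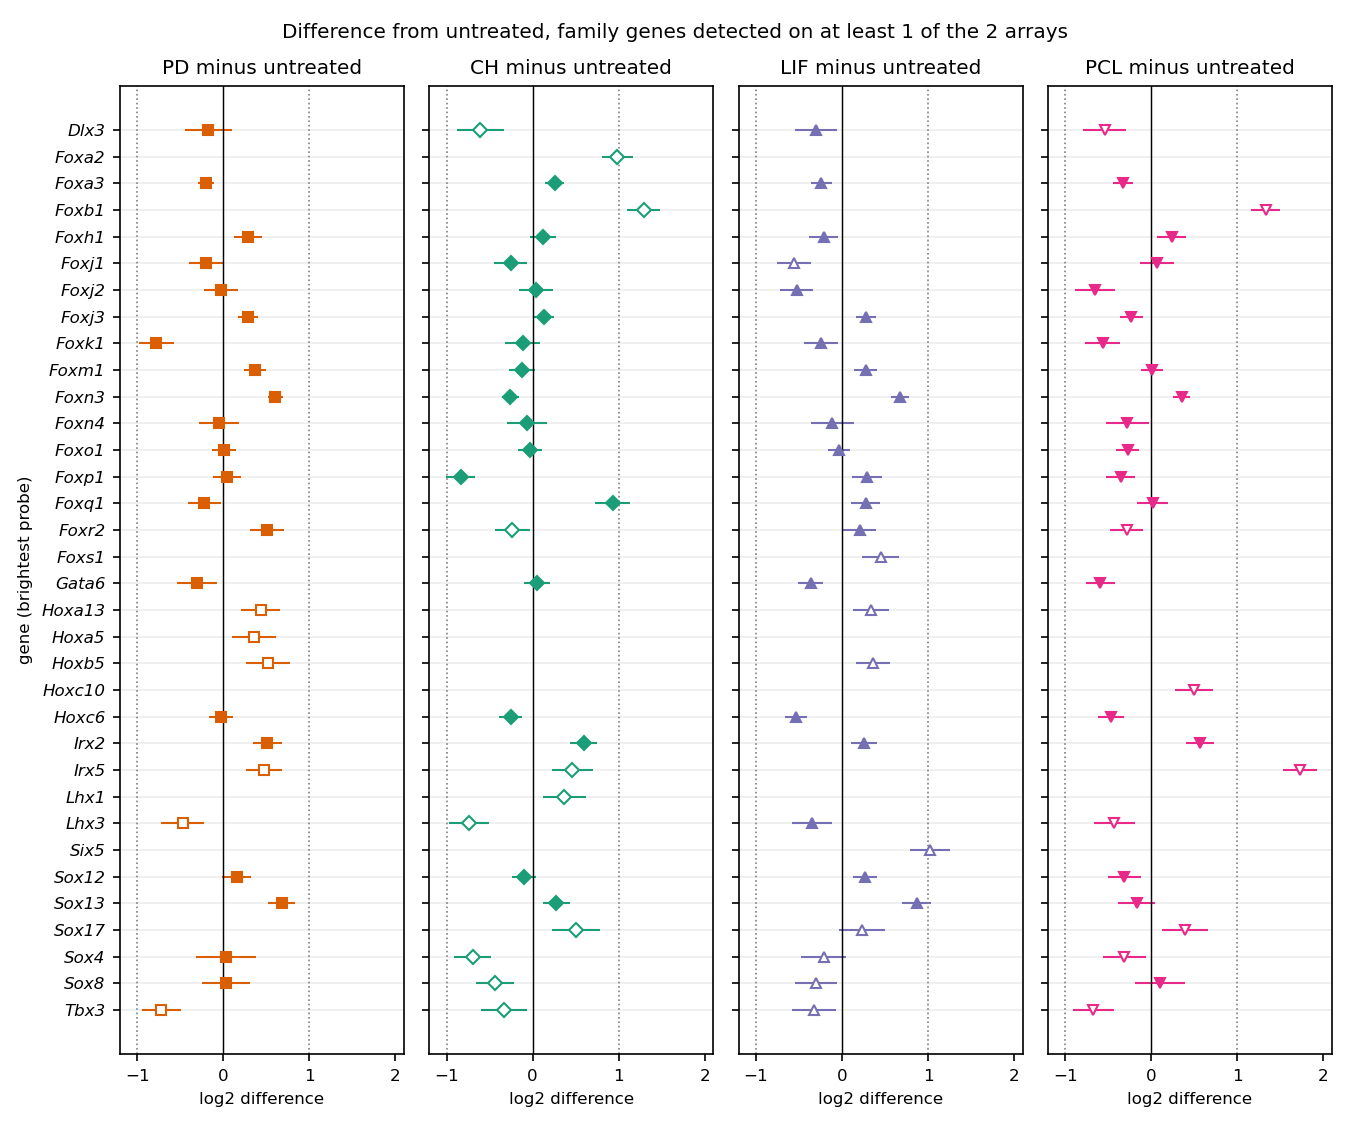
Difference from untreated, in log2 units, of each family gene that the untreated or the treated array detected, in 4 panels for PD, CH, LIF and PCL; bars are bead standard errors, filled marks genes detected on both arrays, open marks genes detected on 1 of them, and dotted lines 2-fold. Irx5 and Foxb1 stand farthest to the right with PCL, at 1.73 and 1.33.

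Of 10 genes listed as endoderm and mesendoderm factors, 7 were detected on at least 1 array. The list was chosen with earlier results known. Foxq1, which is in it by that choice, had the largest difference with CH among those detected on both arrays. The 4 detected on both the CH and untreated arrays differed by 0.93 ± 0.20 (Foxq1), 0.25 ± 0.11 (Foxa3), 0.12 ± 0.15 (Foxh1) and 0.05 ± 0.15 (Gata6), the last 2 within bead error. The other 3, Foxa2, Lhx1 and Sox17, were detected on the CH array and not untreated, so that their higher CH level follows from how they entered the comparison. Of the 5 detected visceral or primitive endoderm markers, only Lama1 was higher with CH than untreated, by 1.22. The other 4 differed by -0.13 to -0.01. Lama1 was undetected on the untreated array, so its direction follows from that filter. It also differed by 1.03 with PD, 0.74 with LIF and 1.18 with PCL. The part of such cells in these values was not tested.

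Foxa2, a pioneer factor of the definitive endoderm, node and notochord, was detected on the CH array alone. Its levels were 4.36 untreated, 4.31 with PD, 5.34 with CH, 4.48 with LIF and 4.80 for PCL. The difference with CH was 0.98 ± 0.18, and since the untreated probe was undetected, Foxa2 was at least 1.18-fold higher. A bound of this kind sets the detected array against the lowest level called detected on the other array. A further Foxa2 probe was undetected on all 5 arrays. RefSeq lists 3 starts for Foxa2, and the promoter printed here, from 250 bases before to 50 bases after the start, is the only one of the 3 that holds the TCF/LEF core, the letters through which the nuclear partners of beta-catenin bind DNA. The core was searched as CTTTGA or CTTTGT on both strands, and 3 matches stand in capitals. It lies on GRCm38.p6 at chr2:148045415-148045714, minus strand, printed 5′ to 3′ in the direction of transcription.
Foxa2 promoter: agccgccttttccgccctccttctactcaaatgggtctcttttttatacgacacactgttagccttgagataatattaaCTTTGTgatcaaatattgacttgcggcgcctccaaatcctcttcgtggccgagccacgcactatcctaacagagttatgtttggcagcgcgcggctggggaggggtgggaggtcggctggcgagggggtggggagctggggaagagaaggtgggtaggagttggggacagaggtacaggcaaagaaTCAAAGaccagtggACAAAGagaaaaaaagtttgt
The same core stands in 31.2% of 32851 RefSeq promoters of this length and in 28.8% of 125 promoters of family members. A match describes these letters and is not a binding site.

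Foxq1, a forkhead factor known in mouse for the satin hair coat, was detected on all 5 arrays. Its levels were 5.84 untreated, 5.62 with PD, 6.77 with CH, 6.12 with LIF and 5.86 for PCL. The CH array was the highest, by 0.93 ± 0.20 over untreated, and the PCL array lay 0.02 ± 0.18 from untreated. Foxq1 was thus high with CH alone and close to untreated when PD and LIF were present as well.

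Foxa3, a forkhead factor of liver and gut, read 7.21 untreated, 7.02 with PD, 7.47 with CH, 6.98 with LIF and 6.89 for PCL. CH was highest and PCL lowest, with differences of 0.25 ± 0.11 and -0.33 ± 0.12. Gata6, a zinc finger factor of the primitive endoderm, read 6.14 untreated, 5.83 with PD, 6.19 with CH, 5.78 with LIF and 5.55 for PCL. Its PCL level differed by -0.59 ± 0.17, while CH lay at untreated within bead error. Foxh1, the DNA-binding partner of Smad2 and Smad3 in Nodal signalling, stayed between 7.34 and 7.84 on the 5 arrays, and none of its differences exceeded 2 bead standard errors.

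Sox17, which specifies endoderm, read 5.07 untreated, 4.68 with PD, 5.57 with CH, 5.30 with LIF and 5.46 for PCL. It was detected with CH, LIF and PCL and not untreated or with PD, but its bounds were only 1.38-fold, 1.15-fold and 1.28-fold higher than untreated. Lhx1, a LIM homeodomain factor of the anterior mesendoderm, was detected with CH only, at 5.29 against 4.92 untreated, at least 1.14-fold higher.

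The neural list was mostly undetected. Of 27 listed genes on the array, Foxb1, Foxj1, Irx2, Irx5 and Sox8 were detected on at least 1 array. With PCL, Foxb1 and Irx5 were compared because the PCL array detected them and the untreated array did not, so their direction follows from that filter and only their size is described below. Of the 3 detected on both arrays, Irx2 differed with PCL by 0.56 ± 0.16, while Foxj1 (0.07 ± 0.20) and Sox8 (0.10 ± 0.29) lay within bead error of untreated. Among the marker genes, Map2 was higher with PD by 0.75 and with PCL by 0.49, and Nes differed by 0.51 and -0.12. The part of these markers in the values was not tested.

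Irx5, an Iroquois homeodomain factor of neural, heart and limb patterning, showed the largest difference from untreated of any detected member. Its levels were 4.94 untreated, 5.42 with PD, 5.40 with CH, 4.85 with LIF and 6.67 for PCL, which correspond to raw intensities of 95.7, 115, 115, 98.3 and 159. The PCL array was highest, the PD and CH arrays were just above the detection limit, and the untreated and LIF arrays were not detected. Irx5 was at least 2.96-fold higher with PCL than untreated (1.73 ± 0.19), and at least 3.13-fold higher than with LIF. PCL exceeded CH by 1.26 and PD by 1.25, which are differences between arrays that each detected the probe. Among members detected on 1 of the 2 arrays compared, Irx5 with PCL is the only one whose bound against untreated exceeded 2-fold.

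Foxb1, a forkhead factor of the neural tube and mammillary body, was detected only on the 2 arrays from cultures given CHIR99021. Its levels were 4.47 untreated, 4.42 with PD, 5.77 with CH, 4.56 with LIF and 5.80 for PCL. The CH and PCL arrays stood apart from the other 3, which did not reach the detection limit. The difference was 1.29 ± 0.19 with CH, at least 1.58-fold, and 1.33 ± 0.17 with PCL, at least 1.62-fold. A further Foxb1 probe read 4.82 untreated, 4.44 with PD, 4.84 with CH, 4.41 with LIF and 5.26 for PCL, and was detected with PCL only. With CH that probe differed from untreated by 0.03, so the 2 probes differ on CH.

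Irx2, another Iroquois factor of neural and limb patterning, was detected on all 5 arrays at 5.21 untreated, 5.72 with PD, 5.80 with CH, 5.46 with LIF and 5.77 for PCL. Untreated was the lowest, and the differences were 0.51 ± 0.17 with PD, 0.59 ± 0.16 with CH, 0.25 ± 0.15 with LIF and 0.56 ± 0.16 for PCL. A further Irx2 probe was undetected throughout. Foxj1, a regulator of motile cilia, read 5.55 untreated, 5.35 with PD, 5.30 with CH, 5.00 with LIF and 5.62 for PCL, and only the LIF array, at least 1.44-fold lower, failed detection. Sox8, a factor of neural crest and glia, ranged from 4.67 to 5.21 around the detection limit.

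Of the 21 mesoderm, heart and blood factors on the array, only Tbx3 was detected, and on the untreated array alone. Tbx3, a T-box repressor of limb and heart development that also belongs to the naive pluripotency network of mouse embryonic stem cells, read 5.14 untreated, 4.42 with PD, 4.81 with CH, 4.82 with LIF and 4.47 for PCL. Its differences of -0.72 ± 0.23 with PD and -0.67 with PCL carry a bound of only 1.05-fold lower with PD. Its other 2 probes were undetected on all 5 arrays, as were Tbx6, Tbx20, Gata1, Gata2 and Nkx2-5.

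Broadly expressed members gave the best measured values of the set. Of 17 on the array, 11 were detected on at least 1 array and 9 on all 5. The median difference was 0.10 with PD (8 of 10 above untreated) and -0.11 with CH (7 of 10 below). It was 0.27 with LIF (7 of 11 above) and -0.29 with PCL (8 of 10 below). Over all genes, 50.2% lay above untreated with PD and 55.2% with LIF, and 51.2% below with CH and 50.4% with PCL. The list was chosen with earlier results known. Sox4 and Six5 enter some of these counts through 1 array only, so the counts and medians describe the list and support no direction.

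Foxn3, a forkhead repressor linked to cell cycle checkpoints, read 8.03 untreated, 8.63 with PD, 7.77 with CH, 8.70 with LIF and 8.38 for PCL. PD and LIF were highest and CH lowest, and the differences were 0.60 ± 0.09, 0.67 ± 0.10 and -0.26 ± 0.10, with 0.35 ± 0.10 for PCL. Sox13, a SoxD factor studied in gamma delta T cells, read 5.72 untreated, 6.40 with PD, 6.0 with CH, 6.59 with LIF and 5.55 for PCL. Each single agent stood above untreated, by 0.68 ± 0.16, 0.28 ± 0.16 and 0.87 ± 0.17, while the combination did not, at -0.17 ± 0.22. PCL minus LIF was -1.04 and PCL minus PD was -0.85.

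The Sox13 promoter is printed because LIF acts through STAT3, whose target sites are described as TTC and GAA separated by 3 bases. That motif, TTCNNNGAA, stands in 8.30% of the 32851 promoters and in 6.4% of the 125 member promoters, and 1 match is in capitals here. It lies on GRCm38.p6 at chr1:133424163-133424462, minus strand, printed 5′ to 3′.
Sox13 promoter: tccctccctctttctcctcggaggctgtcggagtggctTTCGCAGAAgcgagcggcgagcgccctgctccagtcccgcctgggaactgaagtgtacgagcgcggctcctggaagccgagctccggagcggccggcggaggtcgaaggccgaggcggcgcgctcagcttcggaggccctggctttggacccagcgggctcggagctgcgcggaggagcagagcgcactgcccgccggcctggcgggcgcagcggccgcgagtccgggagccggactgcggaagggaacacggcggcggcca
The match is a description only.

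Foxp1, a forkhead factor of lymphocytes, lung and heart, read 6.73 untreated, 6.77 with PD, 5.89 with CH, 7.01 with LIF and 6.37 for PCL. The CH array was the lowest, with a difference of -0.84 ± 0.17, and PCL was also below untreated, at -0.36 ± 0.17. Its promoter is shown as that of the member lowest relative to untreated with CH. It lies at GRCm38.p6 chr6:99520944-99521243, minus strand, and is printed 5′ to 3′ with its 2 TCF/LEF cores in capitals.
Foxp1 promoter: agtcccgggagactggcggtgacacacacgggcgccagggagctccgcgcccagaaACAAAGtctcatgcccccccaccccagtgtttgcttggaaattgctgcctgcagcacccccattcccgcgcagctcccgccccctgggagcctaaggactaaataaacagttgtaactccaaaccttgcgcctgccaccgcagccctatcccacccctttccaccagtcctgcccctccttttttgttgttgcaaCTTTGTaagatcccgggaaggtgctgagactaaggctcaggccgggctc
RefSeq lists 3 starts for Foxp1: the one printed, another that also holds 2 cores, and a last one that holds none. A match is no evidence of binding.

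Foxk1, a forkhead factor of muscle progenitors and metabolism, was lowest with PD: 6.31 untreated, 5.53 with PD, 6.19 with CH, 6.06 with LIF and 5.74 for PCL. Its differences were -0.78 ± 0.20 with PD and -0.57 ± 0.20 with PCL, the 2 arrays that contained PD0325901. The other 2 Foxk1 probes were undetected. Foxj2 read 6.21 untreated, 6.18 with PD, 6.24 with CH, 5.68 with LIF and 5.55 for PCL, lower on the 2 arrays with LIF, with differences of -0.53 ± 0.20 and -0.65 ± 0.23. Foxm1, which drives mitotic gene expression, was higher with PD by 0.37 ± 0.13 and 0.38 on its 2 probes, and differed with PCL by 0.01 and -0.06.

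Six5, a homeodomain factor of the lens, was detected with LIF only: 4.51 untreated, 4.96 with PD, 4.44 with CH, 5.54 with LIF and 4.67 for PCL. The difference of 1.03 ± 0.24 was at least 1.35-fold, while on the PCL array, whose culture also received LIF, the probe was undetected. Its promoter is shown with its 1 TCF/LEF core in capitals, and it holds no STAT motif. The region is GRCm38.p6 chr7:19094294-19094593, plus strand, printed 5′ to 3′.
Six5 promoter: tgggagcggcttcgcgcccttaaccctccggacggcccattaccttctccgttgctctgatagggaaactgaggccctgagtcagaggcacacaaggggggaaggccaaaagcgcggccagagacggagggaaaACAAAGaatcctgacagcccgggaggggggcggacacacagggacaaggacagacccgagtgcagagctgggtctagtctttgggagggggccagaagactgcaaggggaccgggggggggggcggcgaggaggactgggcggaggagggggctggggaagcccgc
The 10% of detected genes with the shortest span, at most 4126 bp, hold 10 members. They are Foxa2, Foxb1, Foxh1, Foxq1, Foxs1, Hoxa13, Hoxa5, Hoxb5, Irx5 and Six5. Foxn3 and Foxp1 are among the longest 10%. Over all detected genes, the shortest group had a median difference of -0.14 with PD, -0.13 with CH, -0.30 with LIF and -0.05 for PCL. The longest group had 0.15, 0.05, 0.14 and 0.02 in the same order. The part of gene span in the results was not tested.

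Sox4 and Sox12 are SoxC factors of progenitor cells. Sox4 read 5.15 untreated, 5.18 with PD, 4.45 with CH, 4.94 with LIF and 4.83 for PCL, and its difference of -0.70 ± 0.22 with CH carried a bound of 1.02-fold. Sox12 lay between 6.40 and 6.99, lowest with PCL and highest with LIF. Foxo1, an effector of insulin and Akt signalling, held 7.90 to 7.94 on 4 arrays and 7.66 with PCL, a difference of -0.27 ± 0.14.

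Of 38 Hox genes, which set position along the body axis, only Hoxc6 was detected on all 5 arrays. It read 7.27 untreated, 7.25 with PD, 7.02 with CH, 6.74 with LIF and 6.81 for PCL, so that the 2 arrays with LIF were lowest, with differences of -0.53 ± 0.13 and -0.46 ± 0.15. Hoxa13, Hoxa5, Hoxb5 and Hoxc10 were detected on 1 or 2 arrays at levels of 5.06 to 5.26, and none of their bounds exceeded 1.11-fold. The remaining 33 Hox genes were undetected.

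Outside the lists, 5 further members were detected: Dlx3, Foxn4, Foxr2, Foxs1 and Lhx3. Dlx3, a homeodomain factor of skin, tooth and placenta, read 5.67 untreated, 5.49 with PD, 5.06 with CH, 5.37 with LIF and 5.13 for PCL, and was at least 1.46-fold lower with CH. Lhx3, a LIM homeodomain factor of pituitary and motor neurons, read 5.54 untreated, 5.06 with PD, 4.80 with CH, 5.19 with LIF and 5.11 for PCL, at least 1.38-fold lower with PD and 1.33-fold with CH. Foxr2 was highest with PD, at 5.65 against 5.14 untreated, and Foxs1 was detected with LIF alone at 5.25. With PCL, Dlx3, Foxr2 and Lhx3 were undetected, and Foxn4, detected on all 5 arrays, differed by -0.28 ± 0.24.

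The combination was set against the sum of the single agents. For each gene, the differences with PD, CH and LIF were added, and PCL less this sum was 2-fold or more from 0 for 5 of 34 genes. Over all genes detected on at least 1 array the share was 15.8%, so the members' count is near the background. Among the 16 members detected on all 5 arrays it was 1, Sox13, where 14% of all such genes passed. Sox13 lay below its sum of 1.82, at -1.99 ± 0.36, Hoxb5 lay at -1.29 ± 0.43 and Six5 at -1.24 ± 0.40. Lhx3 lay above its sum, by 1.13 ± 0.48, and Foxj1 by 1.07 ± 0.39. Irx5 was 0.88 ± 0.45 above a sum of 0.84. By its brightest probe, Foxb1 matched its sum of 1.32, with a difference of 0.00 ± 0.38. That probe was undetected on the untreated, PD and LIF arrays, and the match rests on it. For the further Foxb1 probe, detected with PCL only, the single-agent differences were -0.37 (PD), 0.03 (CH) and -0.40 (LIF). Its PCL difference was 0.44, so the further probe lay above its sum. In this measure the untreated array enters with weight 2, so its error counts most.

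**Figure D4:**
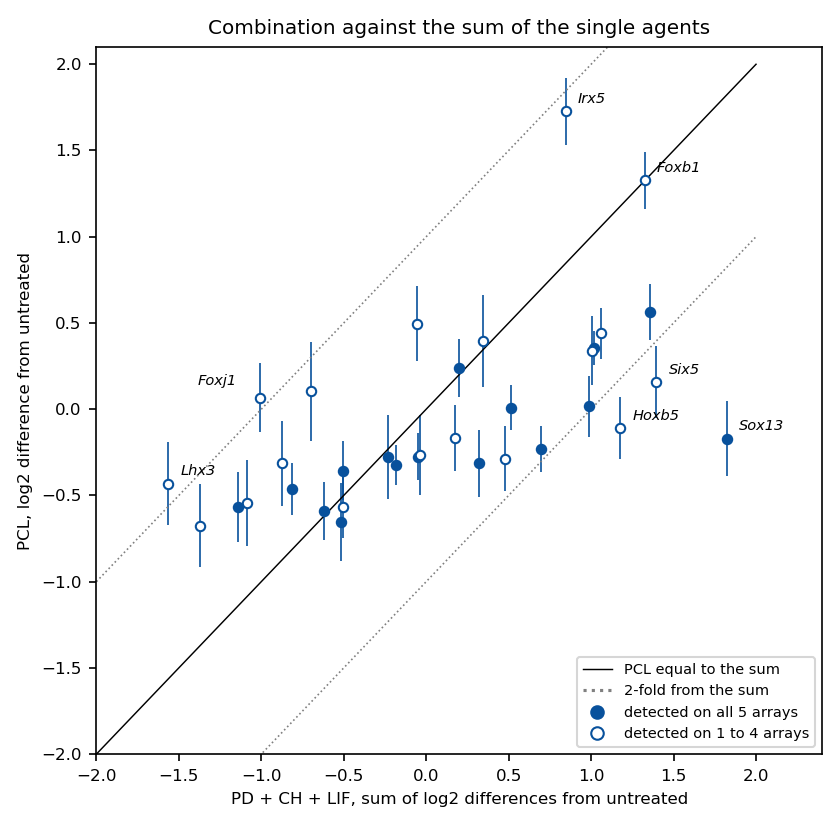
Difference of PCL from untreated (vertical) against the summed differences of the 3 single agents (horizontal), both in log2 units, for the 34 detected family genes; vertical bars are bead standard errors of PCL, the solid line is equality and dotted lines are 2-fold from it. Sox13 is the farthest below the line, at a sum of 1.82 and a PCL difference of -0.17.

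Arrays other than untreated could be set against each other too. PD and CH differed by at least 1.5-fold at 11 of 29 members, against 11.7% of all genes, and PD and LIF at 2 of 29, against 10.9%. CH and PCL differed at 6 of 24 (6.81% of all genes) and LIF and PCL at 8 of 29 (15.1%). Of the 11 that separated PD from CH, 6 were higher with CH (Foxa2, Foxb1, Foxk1, Foxq1, Lhx1 and Sox17) and 5 lower (Foxn3, Foxp1, Foxr2, Hoxa5 and Sox4). Both arrays detected 4 of them: CH minus PD was 1.15 ± 0.21 for Foxq1, 0.66 ± 0.19 for Foxk1, -0.86 ± 0.09 for Foxn3 and -0.88 ± 0.14 for Foxp1. For the other 7, detection on 1 of the 2 arrays set the direction.

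Genes with several detected probes showed how far a value may rest on the probe. For Foxj3, a forkhead factor of muscle and germ cells, the brightest probe differed with PCL by -0.23 ± 0.13, and 4 further detected probes by 0.38, -0.55, -0.60 and 0.21. For Foxh1 the brightest probe gave 0.29 for PD, 0.12 for CH, -0.21 for LIF and 0.24 for PCL, and the further probe -0.01, 0.06, 0.10 and -0.08. The 2 Foxm1 probes had the same sign with each single agent.

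**Figure D5:**
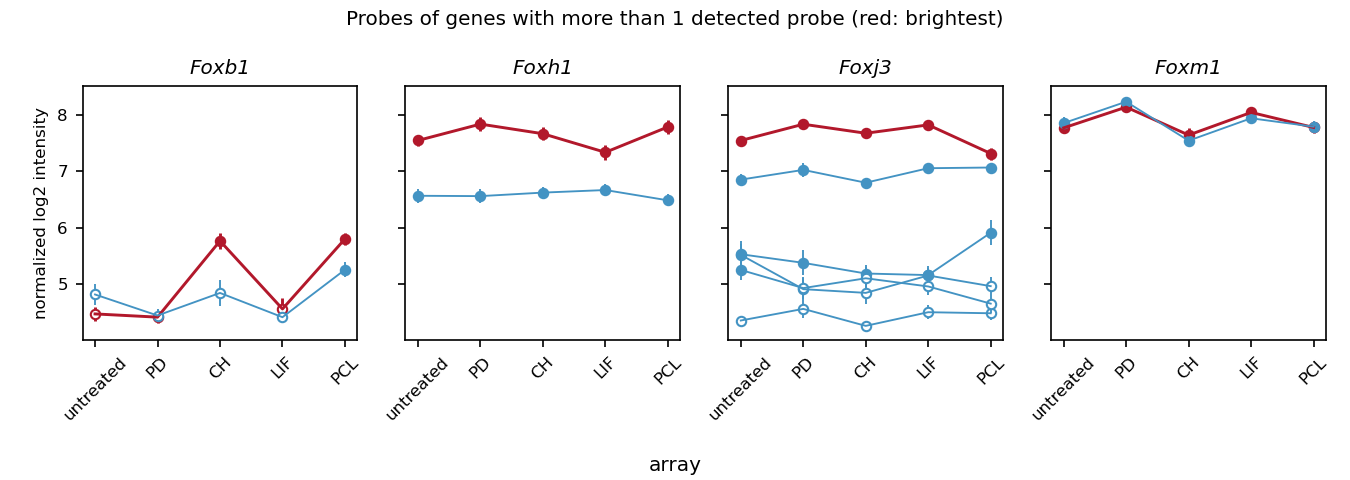
Normalized log2 intensity by array for every probe of the 4 genes with more than 1 detected probe, with the brightest in red; bars are bead standard errors and open marks undetected values. The Foxb1 probes part on the CH array, at 5.77 and 4.84, and the Foxj3 probes part on the PCL array.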

How the data were processed

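The 5 cultures of the E3 line, 1 array each, were grouped by their titles. The deposited intensity and signal values are scanner-level bead means per probe with a bead standard error, and each probe has a detection p-value, per the file headers; BeadStudio exported them, per the submitters' processing notes (its version was not given there). The authors' processed value table served only as an alternative: it holds linear, whole-number values with medians of 99.5 to 100 per array and 13125 to 13132 empty cells per array, and its background and scaling steps are unknown.

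Intensities were background corrected with normexp, the background mean and spread being inferred from the detection p-values, offset 16, quantile normalized over the 5 arrays together and taken to log2 (neqc, limma 3.58.1 in R 4.3.3). Bead standard errors were carried through. Genes were taken from the platform annotation: 23978 probes have 1 symbol and 1719 none. All 213 member probes matched RefSeq by gene identifier. Promoters and names are RefSeq, GRCm38.p6.

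A gene is its brightest probe over the 5 arrays, compared where at least 1 of the 2 arrays detected it (p under 0.01). With 1 array a condition there is no test; counts past 2-fold stand beside the share of all genes past the same fold. The number of arrays limits the precision. Named with values were members past 2-fold, the 6 highest and 6 lowest per agent, the brightest and most variable of each family, and those detected on 1 array. The members, role lists and marker lists were chosen with earlier results of these data known. The scripts were tested on simulated data. Alternatives were the background correction, offset, scaling, detection threshold, probe choice and reference.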

Additional observations from a re-analysis of the deposited data

How the results depend on the processing

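No paired analysis was possible because each condition has 1 array, and no array could be left out in turn. Of the alternative values of counts and medians, 41 moved and 73 did not. For single genes, 107 values moved and 91 did not, and none of these changed sign. Part of this is set by construction. The bound could not reverse these differences and leaves a gene detected on both arrays as it was. The mean over detected probes equals the main value for a gene with 1 detected probe. These counts therefore support no direction. No member differed 2-fold with PD, but 3 did with an offset of 1 and 2 in the authors' processed values. With CH the count of 1 became 0 without background correction, with an offset of 50, among genes detected on both arrays and with the undetected side at its bound, 3 with median scaling, 4 in the authors' values and 6 with an offset of 1. With LIF the count of 1 became 0 in those 4 settings and against the mean of arrays without LIF, and 2 with an offset of 1, median scaling or the authors' values. The authors' values gave no difference for Foxb1 with CH or Six5 with LIF, so other genes make up their counts. With CH these were Foxq1, higher, and Dlx3, Foxp1 and Lhx3, lower, and with LIF Foxs1 and Sox13, higher. With PCL the count of 2 became 0 without background correction and among genes detected on both arrays, and 1 with an offset of 50, the mean over detected probes, the bound or the mean of the other arrays. The 1.5-fold limit and normalization without the LIF array were chosen after seeing the data: at 1.5-fold the counts were 4 for PD, 8 for CH, 3 for LIF and 5 for PCL. Without background correction the 1.5-fold counts were 0 for PD, 0 for CH, 0 for LIF and 1 for PCL. The shares of all genes past 2-fold or 1.5-fold were counted under the main processing only. The LIF median became -0.11 at a detection p under 0.05, and the PCL median 0.011 with no detection filter and 0.00 at the bound. At a detection p under 0.05, the untreated array detected 53 member probes, PCL 49, LIF and CH 45 each, and PD 40. These counts are 18.8 to 24.9% of the members, against 47.0 to 48.3% of all probes. At p under 0.001, LIF detected 25, CH 20, PCL 19, the untreated array 17 and PD 16. That is 7.5 to 11.7% of the members, against 34.4 to 40.2% of all probes. The members' share was thus below that of all probes on every array at both thresholds. Genes 2-fold from the sum of single agents numbered 0 without background correction, 1 with an offset of 50, 16 with an offset of 1, and 8 with median scaling or the authors' values. Across settings the PCL difference of Irx5 ran from 0.78 to 2.54, and that of Foxb1 with CH from 0.47 to 2.45. A smaller offset widens log2 differences near background by construction, and a larger offset or no background correction narrows them. The bound can only shrink the difference of a gene that 1 of the 2 arrays detected. For the other shifts the cause was not tested. Signal over background limits every value below about 5.17.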
